A study of Mus musculus with 6 samples.

Results

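The genes described here are Cs, Mdh1, Idh3a, Pdhb, Ndufb3, Cycs and Atp5o, 7 nuclear genes of the tricarboxylic acid (TCA) cycle and the respiratory chain, chosen by name from the 3162 genes listed for this series. They were measured by bulk RNA sequencing of white fat taken from beside the epididymis, a visceral depot. The 3 fed mice had free access to food, and the 3 fasted mice had been without food for 24 h. All 6 animals were male wild-type C57BL/6J mice aged 16 weeks, and each gave 1 library of total RNA, so that p-values measure the spread between mice. All 7 genes were found and all 7 passed the filter on low values, a mean of at least 1 FPKM (fragments per kilobase of transcript, scaled to the mapped fragments of the library).

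The TCA cycle oxidises acetyl-CoA in the mitochondrial matrix and passes the electrons to the respiratory chain, whose proton pumping drives ATP synthase. In white adipocytes the cycle also supplies citrate, which leaves the mitochondrion and is cut to the acetyl-CoA used for fatty acid synthesis. The subunits of the respiratory complexes come from the nuclear and the mitochondrial genome, and all the genes described here are nuclear.

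In these libraries all 7 genes were lower after the fast. The fasted mean was 51.2% of the fed mean for Ndufb3, 54.9% for Pdhb, 56.6% for Idh3a, 61.9% for Cycs, 66.1% for Mdh1, 66.8% for Cs and 75.8% for Atp5o. By limma with Benjamini-Hochberg adjustment over 2999 tested genes, 7 of the 7 fell, with a median log2 fold change of -0.68, against -0.34 over all tested genes. Lower calls made up 49.4% of all tested genes, since the genes listed had been selected for differing between these same libraries. The fed and fasted values of the 7 genes did not overlap, and this was so, in the same direction, for 51.5% of all genes listed. Higher calls made up 41.1% of tested genes, and 93.4% of the genes listed did not overlap in either direction. The counts over the 7 genes are read against that background. In bulk tissue fewer cells of a type and less RNA per cell cannot be told apart.

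Promoter sequences from RefSeq (GRCm38.p6) were matched for 6 of the 7 genes, all but Idh3a. The 250 bases upstream of the start site are shown for Cs, the entry enzyme of the cycle, and for Cycs, the mobile electron carrier. Both windows lie wholly outside the annotated gene, and both are written 5′ to 3′ on the gene's own strand. Capitals mark matches, on either strand, to the CCAAT box (CCAAT), the core of the site of nuclear respiratory factor 1 (CGCNTGCGC) and the palindromic cyclic AMP response element (TGACGTCA). The Cs window is chr10:128337477-128337726 on the plus strand and the Cycs window is chr6:50566570-50566819 on the minus strand.
Cs: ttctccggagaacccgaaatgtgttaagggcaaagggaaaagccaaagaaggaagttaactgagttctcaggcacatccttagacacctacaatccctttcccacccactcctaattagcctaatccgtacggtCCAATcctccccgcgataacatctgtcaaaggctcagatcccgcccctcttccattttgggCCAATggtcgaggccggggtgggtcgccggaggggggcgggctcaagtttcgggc
Cycs: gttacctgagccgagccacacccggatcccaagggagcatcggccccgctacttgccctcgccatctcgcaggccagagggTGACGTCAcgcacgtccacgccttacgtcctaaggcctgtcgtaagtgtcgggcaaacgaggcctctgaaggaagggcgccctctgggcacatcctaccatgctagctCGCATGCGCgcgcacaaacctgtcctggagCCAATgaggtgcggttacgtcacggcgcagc

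A CCAAT string was present in 5 of the 6 matched windows (Cs, Cycs, Mdh1, Ndufb3 and Pdhb) and not in that of Atp5o. Of 32851 promoter windows of this length, 33.8% held it, and the share was 40.5% for genes called lower and 35.3% for genes called higher. The core string of nuclear respiratory factor 1 was found in 1 of the 6 windows, that of Cycs, 53 to 61 bases upstream of the start, and in 5.16% of all windows. The response element palindrome was likewise in 1 of the 6, again Cycs, 162 to 169 bases upstream, and in 1.55% of all windows. Among genes called lower 10.8% held the nuclear respiratory factor string and 2.62% the palindrome, against 7.52% and 3.03% of genes called higher. An ETS core (CCGGAAG) and an element of the oestrogen-related receptors (TCAAGGTCA) matched 0 of the 6 windows, and 6.91% and 0.387% of all windows. These strings describe the windows and say nothing of binding, and they were chosen after the sequences had been seen.

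Pdhb encodes the beta subunit of the pyruvate dehydrogenase E1 enzyme, which turns pyruvate into acetyl-CoA and so feeds the cycle. The gene spans chr14:8165996-8173025 (GRCm38, minus strand; ENSMUSG00000021748). Fed mice had 118, 199 and 132 FPKM, and fasted mice 86.2, 81.7 and 78.6 FPKM. Fed replicate 2 stood above the other fed libraries, the fasted libraries lay close together, and the groups did not overlap. The group levels were 149.6 ± 43.3 and 82.2 ± 3.85 FPKM (SD, n = 3 mice each). On the log2(FPKM + 1) scale, used for every fold change here, the difference was -0.82 ± 0.19 (SE; adjusted p = 0.00774 by limma). Without fed replicate 2 the change was -0.60.

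Cs encodes citrate synthase, which joins acetyl-CoA to oxaloacetate at the entry of the cycle. The gene spans chr10:128337734-128362479 (plus strand; ENSMUSG00000005683). It stood at 218, 223 and 221 FPKM in fed mice and at 143, 136 and 163 FPKM in fasted mice. The fed values were almost level (220.4 ± 2.6 FPKM, SD, n = 3), and every fasted library (147 ± 14.1 FPKM) was below them, the highest being fasted replicate 3. The log2 fold change was -0.58 ± 0.12 (SE; limma adjusted p = 0.00485).

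Idh3a encodes the catalytic alpha subunit of the NAD-dependent isocitrate dehydrogenase, a regulated oxidative step of the cycle. It spans chr9:54586334-54604661 (plus strand; ENSMUSG00000032279). Its fed levels were 94.8, 96.0 and 72.6 FPKM and its fasted levels 43.1, 44.8 and 61.1 FPKM. Fed replicate 3 and fasted replicate 3 were the nearest to each other, and the groups still did not overlap. Between the group means of 87.8 ± 13.2 and 49.7 ± 9.96 FPKM the log2 fold change was -0.82 ± 0.18 (limma adjusted p = 0.00621).

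Mdh1 encodes the cytosolic malate dehydrogenase. This enzyme is not part of the mitochondrial cycle itself but works in the malate-aspartate shuttle and in the return of carbon from citrate export. Its gene (chr11:21556787-21572367, minus strand; ENSMUSG00000020321) stood at 284, 257 and 255 FPKM in fed and 155, 188 and 184 FPKM in fasted tissue. Here fed replicate 1 was the highest fed library and fasted replicate 1 the lowest of all. The means of 266 ± 16.3 and 176 ± 18.1 FPKM differed by -0.60 ± 0.13 in log2 (limma adjusted p = 0.00567). Its exons share 52 bases with those of Wdpcp on the other strand.

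Ndufb3 encodes an accessory subunit of the membrane arm of complex I, the NADH dehydrogenase that opens the chain. The gene spans chr1:58586384-58595964 (plus strand; ENSMUSG00000026032). It was at 135, 196 and 172 FPKM in fed mice and at 88.2, 76.8 and 92.5 FPKM in fasted mice, so that the lowest fed library stood well above the highest fasted one. The means were 168 ± 30.9 and 85.8 ± 8.09 FPKM. Its log2 fold change of -0.95 ± 0.16 was the deepest of the 7 (limma adjusted p = 0.003), and 13.0% of all tested genes had a lower one.

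Cycs encodes somatic cytochrome c, which carries electrons from complex III to complex IV. The gene spans chr6:50562563-50566538 (minus strand; ENSMUSG00000063694). Fed levels were 74.2, 82.3 and 65.3 FPKM, and fasted levels were 43.9, 49.7 and 43.8 FPKM. All 3 fasted libraries were below the lowest fed one, with means of 45.8 ± 3.38 against 73.9 ± 8.5 FPKM and a difference of -0.68 ± 0.13 in log2 (limma adjusted p = 0.00426). The value of Cycs is uncertain: the annotation holds 4 other genes with at least 95% identity to its transcript over at least 200 bases, 3 of them processed pseudogenes, and reads could be divided among them.

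Atp5o encodes the oligomycin-sensitivity-conferring subunit of the stalk of ATP synthase. The gene spans chr16:91925214-91931687 (minus strand; ENSMUSG00000022956). Its fed values were 251, 239.9 and 244 FPKM and its fasted values 176, 175 and 206 FPKM. The fed libraries were nearly level and fasted replicate 3 came closest to them. The group means of 245 ± 5.63 and 186 ± 17.5 FPKM gave the smallest fall of the 7, -0.40 ± 0.12 (limma adjusted p = 0.0148), and 43.6% of all tested genes had a lower change. Its exons overlap antisense genes on the other strand and, by 243 bases, a separately annotated protein-coding gene on the same strand that carries the same symbol. A near-identical processed pseudogene is annotated as well. Pdhb and Ndufb3 each have 1 such copy, also a pseudogene.

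**Figure D1:**
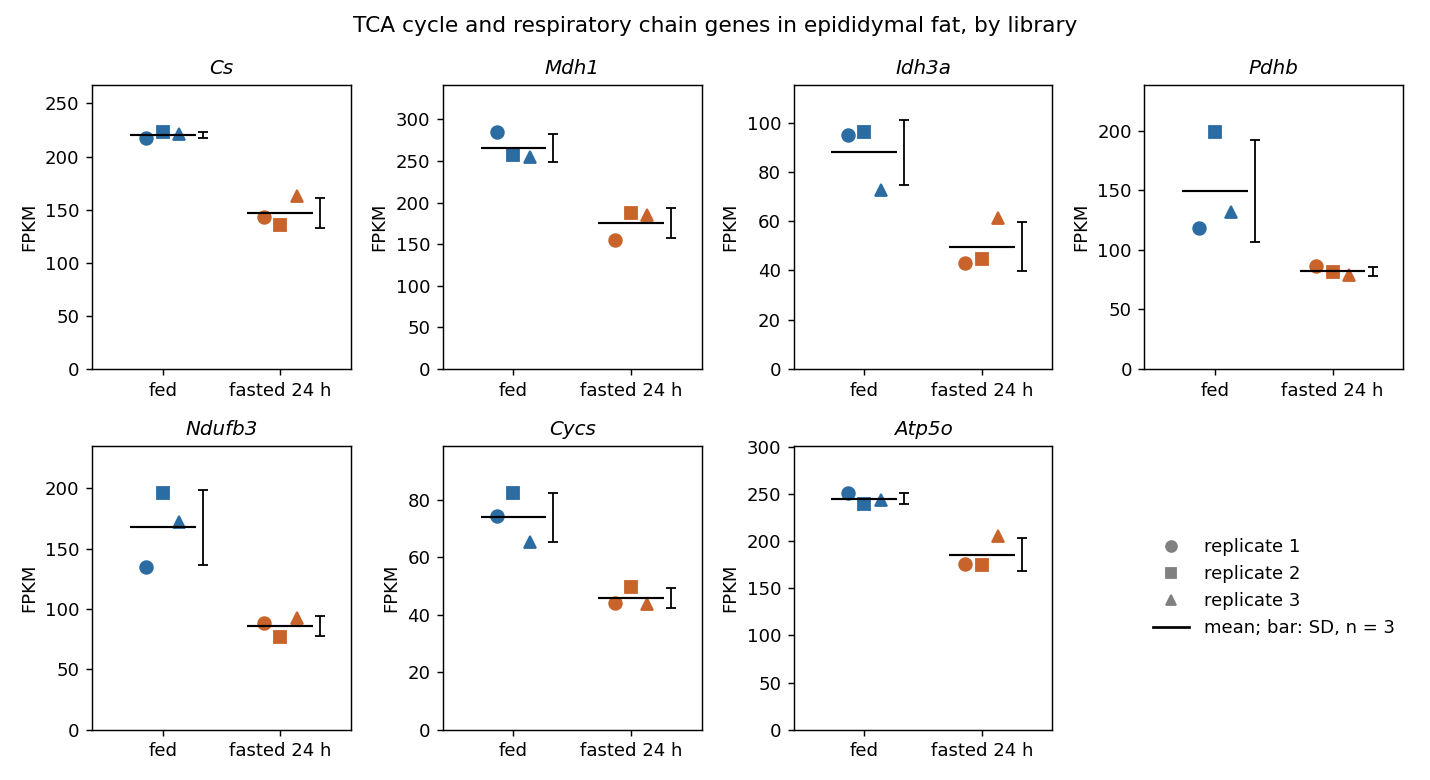
FPKM (y axis, from 0, its own range in each panel) of the 7 genes in the 3 fed and 3 fasted libraries. Symbols mark the replicate, horizontal lines the group mean and bars the SD (n = 3). In every panel the fasted points lie below the fed points, and the fed points of Cs and Atp5o are much closer together than those of Pdhb and Ndufb3.

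Per unit of transcript length, the fed levels ran in the order Mdh1, Atp5o, Cs, Ndufb3, Pdhb, Idh3a and Cycs, from 266 down to 73.9 FPKM. Neighbours in that order whose fed values overlapped were Ndufb3 with Pdhb, and Idh3a with Cycs. In fasted tissue the upper ranks were Atp5o, Mdh1 and Cs, and Ndufb3, Pdhb, Idh3a and Cycs followed. There Atp5o and Mdh1, Mdh1 and Cs, Ndufb3 and Pdhb, and Idh3a and Cycs overlapped. The summed level of the 7 genes was 1162 to 1294 FPKM in the fed and 736 to 829 FPKM in the fasted libraries.

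The members with the largest and the smallest fall were also compared within each library. Ndufb3 relative to Atp5o was 0.537, 0.817 and 0.705 in fed mice and 0.500, 0.439 and 0.449 in fasted mice. These ratios did not overlap between the groups, and the exact permutation test, two-sided, gave p = 0.1, the smallest that 3 against 3 allows (0.133 adjusted by Benjamini-Hochberg over 8 pairs). Idh3a relative to Cs, by contrast, was 0.436, 0.431 and 0.329 in fed and 0.301, 0.330 and 0.375 in fasted tissue, and these groups overlapped (exact permutation p = 0.3, adjusted 0.343). All 8 pairs were chosen after their values had been seen.

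Among the fed mice, replicate 2 had the top value for 5 of the 7 genes. It was also the highest fed library over the listed genes in general. Its size factor, a median ratio over those genes, was 1.14, against 1.03 in fed replicate 1 and 1.03 in fed replicate 3. How many of all listed genes had their top fed value in fed replicate 2 was not counted. That library stood 1.59-fold above the mean of the other fed libraries for Pdhb, 1.28-fold for Ndufb3, 1.18-fold for Cycs, 1.15-fold for Idh3a and 1.02-fold for Cs. For Mdh1 and Atp5o it was 0.954-fold and 0.969-fold, so below that mean. Fed replicate 2 was 3.55-fold above the mean of the other fed libraries for Acly, the citrate-cleaving enzyme of fatty acid synthesis, named after its values were seen. Without fed replicate 2 the 7 genes were still called lower, with a median log2 fold change of -0.60, against 37.3% of all tested genes.

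The scaling of the libraries was also varied, on the 3162 listed genes alone. Since these had been selected for differing, the scaling cannot show whether the level of whole libraries moved. Size factors computed as median ratios were 1.03 to 1.14 in fed libraries, highest in fed replicate 2, and 0.911 to 0.953 in fasted libraries. Scaling by them shifted the median change of all tested genes from -0.34 to -0.15. With that scaling 6 of the 7 genes were called lower, against 26.2% of all tested genes, and Atp5o was not (log2 fold change -0.20, limma adjusted p = 0.191). With quantile scaling Ndufb3, Cycs, Idh3a and Pdhb were called lower, against 38.9% of all tested genes, whereas Cs (-0.28, adjusted p = 0.0619), Mdh1 (-0.32, adjusted p = 0.0689) and Atp5o (-0.12, adjusted p = 0.381) were not. Adjusted over all 21951 annotated protein-coding genes, Pdhb (limma adjusted p = 0.0567) and Atp5o (0.109) missed the threshold, and 16.5% of all tested genes were called lower. Higher calls made up 41.2% of tested genes with median ratios, 40.2% with quantiles and 18.6% with the wider adjustment. When fed replicate 1, 2 or 3 was left out, 43.4%, 37.3% and 41.0% of tested genes were called lower and 40.0%, 38.5% and 37.6% higher. When fasted replicate 1, 2 or 3 was left out, these shares were 40.8%, 34.5% and 39.3% lower and 37.7%, 38.1% and 41.0% higher. Leaving out a library cost the 7 genes 1 call, that of Atp5o without fasted replicate 2 (limma adjusted p = 0.0565). None of the 13 alternatives turned the direction of any of the 7, which only median-ratio and quantile scaling could have done.

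**Figure D2:**
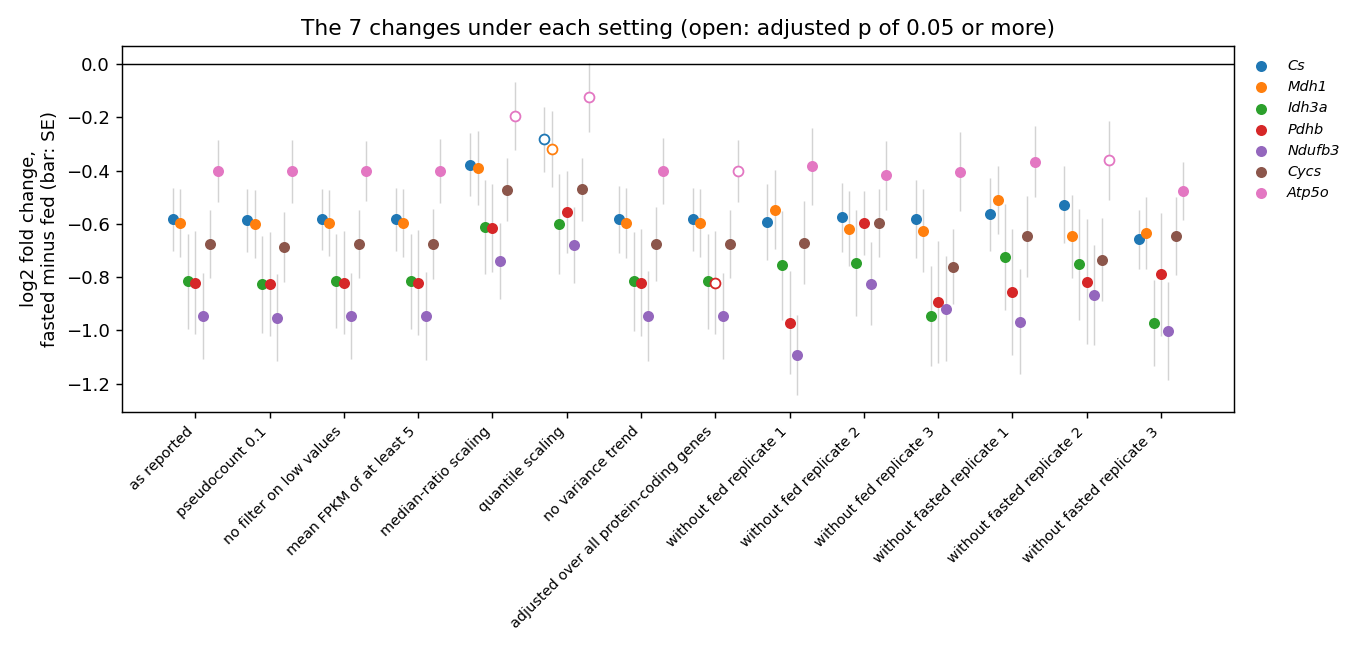
Log2 fold change of FPKM + 1, fasted minus fed (y axis; bars are SE), of the 7 genes as reported and under each of 13 alternative settings (x axis). Filled points passed an adjusted p of 0.05 and open points did not. All points lie below 0, and the open ones are Atp5o under 4 settings, Cs and Mdh1 with quantile scaling and Pdhb with the wider adjustment.

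Of 22 other listed genes of pyruvate entry and the cycle, 7 were among the 3162 selected genes, and 6 fell, 0 rose and 1 did not pass. Their median log2 fold change was -0.43, against -0.34 over all tested genes, of which 49.4% were called lower. Here and below, measured means present in that selection. Genes absent from it have no values here and may have been sequenced as well. The counts therefore describe selected genes and not whole pathways. With Pdhb, Cs, Idh3a and Mdh1 the list had 26 genes, 11 measured and 10 that fell (median -0.55). For the 10 that fell, every fasted library was below every fed one, which was so for 51.5% of all genes listed. In the pyruvate dehydrogenase complex Pdhx, the component that holds its E3 enzyme, went from 23.2 ± 3.93 to 14.7 ± 0.259 FPKM (-0.61 ± 0.14). Dlat, the E2 acetyltransferase, fell by 0.43 on the log2 scale, Dld, the E3 enzyme shared with other dehydrogenases, by 0.43 and Pdha1, the E1 alpha subunit that the kinases phosphorylate, by 0.35. Exons of Pdha1 overlap Map3k15 on the other strand, and the difference between its change and that of Pdhb was not tested. Sdhc, a membrane anchor subunit of succinate dehydrogenase, fell by 0.39. The mitochondrial pyruvate carrier gene Mpc1 went from 382 ± 74.1 to 258 ± 15.6 FPKM (-0.55 ± 0.16), while Mpc2, its partner, was at 186 ± 37.8 and 148 ± 13.7 FPKM with overlapping groups (-0.31 ± 0.17, limma adjusted p = 0.102). With median-ratio scaling 5 of the whole list were called lower (Cs, Idh3a, Mdh1, Pdhb and Pdhx), with quantile scaling 4 (Idh3a, Mpc1, Pdhb and Pdhx) and with the wider adjustment 3 (Cs, Idh3a and Mdh1). The shares of all tested genes called lower were 26.2%, 38.9% and 16.5%.

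Of 3 measured kinases that switch the pyruvate dehydrogenase complex off, Pdk2 and Pdk4 rose and Pdk3 fell. Pdk2 stood at 90.2, 47.6 and 112 FPKM in fed and 259, 331 and 305 FPKM in fasted libraries. Every fasted library was well above the highest fed one, and fed replicate 2, the highest for Pdhb, was the lowest for Pdk2. The log2 fold change of Pdk2 was 1.91 ± 0.29 (limma adjusted p = 0.00217), and 98.4% of tested genes had a lower one. Pdk4 rose as well (0.96 ± 0.23, limma adjusted p = 0.00836), a call lost with the wider adjustment. Pdk3 fell, as Pdhb did, from 7.49 ± 0.488 to 3.99 ± 0.257 FPKM (-0.76 ± 0.13, limma adjusted p = 0.00299). The ratio of Pdk2 to Pdhb was 0.763, 0.239 and 0.851 in fed and 3.00, 4.05 and 3.88 in fasted libraries (exact permutation p = 0.1, the smallest possible, adjusted 0.133). It could not overlap, since Pdk2 rose and Pdhb fell, each without overlap. Pdk1, the phosphatases and the other listed genes of this group were not among the selected genes and so were not analysed here.

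**Figure D3:**
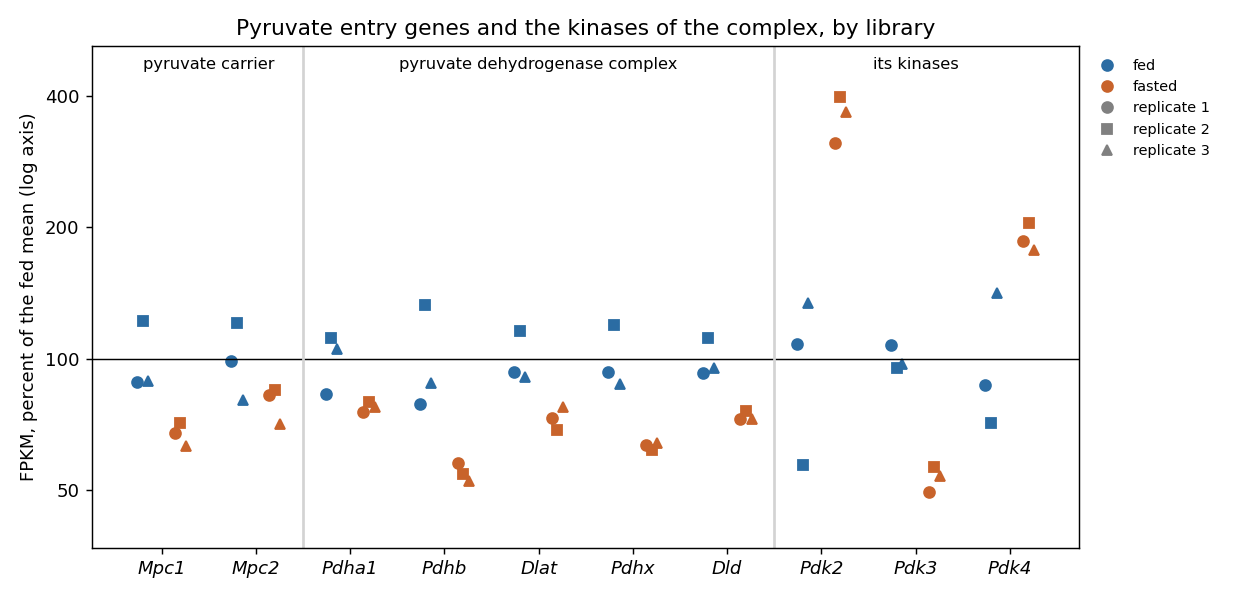
FPKM of each library as a percentage of the gene's fed mean (y axis, log scale) for the pyruvate carrier, the pyruvate dehydrogenase complex and the kinases of that complex. Symbols mark replicates and colours the groups. The fasted points of Pdhb average 54.9% of the fed mean and those of Pdk2 358%, and fed replicate 2 is high for the enzyme genes and low for Pdk2 and Pdk4.

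In the respiratory chain, 17 of 84 listed nuclear genes were among the 3162 selected genes, and 11 fell, 2 rose and 4 did not pass. Their median was -0.33, close to the -0.34 of all tested genes, of which 49.4% were called lower. Ndufb3 had the deepest fall of the 9 measured complex I genes. Ndufa11 (-0.51 ± 0.13), Ndufb6 (-0.40 ± 0.12), Ndufb7 (-0.35 ± 0.14), Ndufs4 (-0.35 ± 0.12), the large iron-sulfur subunit gene Ndufs1 (-0.33 ± 0.11) and Ndufs8 (-0.31 ± 0.12) fell by less, and Ndufab1, the mitochondrial acyl carrier protein, was at 259.9 ± 27.4 and 213 ± 9.14 FPKM (adjusted p = 0.0555). Ndufa6, an accessory subunit of the matrix arm, went the other way. It was at 159, 146 and 159 FPKM in fed and 254, 261 and 217 FPKM in fasted tissue (0.65 ± 0.12, limma adjusted p = 0.00398). Ndufa6 relative to Ndufb3 was 0.744 to 1.18 in the fed and 2.35 to 3.40 in the fasted libraries (exact permutation p = 0.1, the smallest possible, adjusted 0.133). These ratios could not overlap, since Ndufa6 rose and Ndufb3 fell, each without overlap, and the pair was chosen after its values were seen.

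Beyond complex I, the falls beside Cycs and Atp5o were small. Uqcr11, a small subunit of complex III, fell (-0.32 ± 0.12), and Uqcrq, another, was at 127 ± 15.8 and 104 ± 15.3 FPKM (adjusted p = 0.105). Of the ATP synthase genes Atp5k fell (-0.34 ± 0.13), whereas Atp5g3 (-0.29 ± 0.13, adjusted p = 0.0542) and Atp5f1 (-0.25 ± 0.10, adjusted p = 0.0506) missed the threshold. Cox7a2l rose from 106 ± 7.72 to 149 ± 5.47 FPKM (0.50 ± 0.11, limma adjusted p = 0.00665). It is listed with complex IV but is known for joining complexes III and IV into supercomplexes. The rises of Ndufa6 and Cox7a2l were called under all 13 alternatives. Among the falls, Cycs, Ndufb3 and Ndufa11 were the 3 called under either scaling, and also when fasted replicate 2 was left out, and Cycs and Ndufb3 the 2 called with the wider adjustment. Of all tested genes, 26.2% were called lower with median ratios, 38.9% with quantiles, 34.5% without fasted replicate 2 and 16.5% with the wider adjustment. None of the mitochondrially encoded subunits was among the selected genes, so these were not analysed here.

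**Figure D4:**
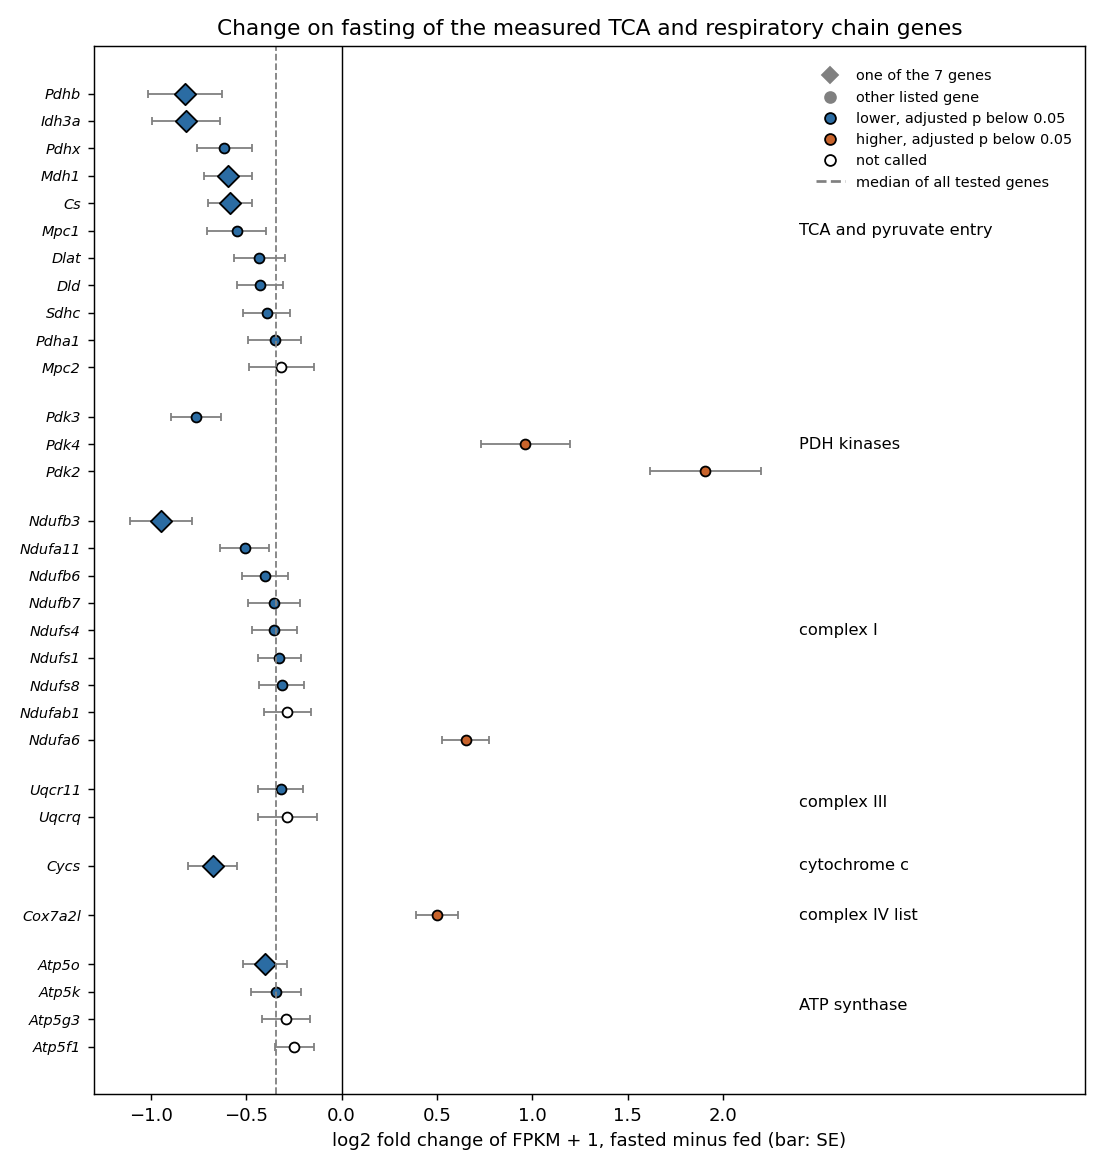
Log2 fold change of FPKM + 1, fasted minus fed (x axis; bars are SE), of the measured genes of pyruvate entry, the TCA cycle and the respiratory chain, grouped by role. Diamonds are the 7 genes, colours mark calls at an adjusted p of 0.05, and the dashed line is the median of all tested genes (-0.34). Most respiratory chain genes lie near that line, Ndufb3 and Cycs lie to its left, and Ndufa6, Cox7a2l, Pdk2 and Pdk4 lie to the right of 0.

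Of 48 listed assembly factors of the respiratory complexes, 13 were among the 3162 selected genes, and 12 fell, 0 rose and 1 did not pass. Their median was -0.49, against -0.34 over all tested genes, of which 49.4% were called lower. Tmem126a, a factor of complex I, went from 45.4 ± 6.96 to 22.0 ± 1.11 FPKM. The log2 fold change of Atpaf2, a chaperone of ATP synthase, was -0.81 ± 0.14, that of Acad9, another complex I factor, -0.72 ± 0.14, and that of Bcs1l, which inserts the Rieske protein into complex III, -0.59 ± 0.13. These 4 were also called lower with either scaling. Of the list, 6 were called with median ratios, 8 with quantiles and 5 with the wider adjustment. The shares of all tested genes called lower were 26.2%, 38.9% and 16.5%. Exons of Acad9 share 559 bases with Gm43079 on the same strand, so the value of Acad9 may hold reads of both. In coenzyme Q synthesis Coq7, the hydroxylase of a late step, went from 39.0 ± 10.0 to 18.1 ± 3.08 FPKM (-1.05 ± 0.20), and Coq8a, an atypical kinase of the same pathway, from 15.9 ± 3.12 to 56.4 ± 4.04 FPKM (1.77 ± 0.16). Exons of Coq8a and Cdc42bpa overlap on opposite strands by 366 bases, so the value of Coq8a may hold reads of both.

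Most of the measured genes that move or convert TCA metabolites and reducing power between mitochondrion and cytosol fell. Of 18 listed, 11 were among the 3162 selected genes, and 9 fell and 2 rose (median -0.97). The 2 that rose were Slc25a12 (0.67 ± 0.19, limma adjusted p = 0.0143) and Me3 (0.58 ± 0.15, limma adjusted p = 0.00966), both at low levels. Of all tested genes, 49.4% were called lower and 41.1% higher. Slc25a10, the dicarboxylate carrier, went from 89.7 ± 37.3 to 10.1 ± 1.09 FPKM (-2.95 ± 0.28). Gpd1, the cytosolic enzyme of the glycerol phosphate shuttle, had a change of -1.87 ± 0.36, Idh1, the cytosolic isocitrate dehydrogenase, -0.97 ± 0.20, and Gpd2, the mitochondrial partner of Gpd1, -0.84 ± 0.17. Fed replicate 2 topped the fed mice for 9 of these 11. Its median over all 11 genes was 1.24 times the mean of the other fed mice. Without fed replicate 2, 9 of the list were called lower and 2 higher, against 37.3% and 38.5% of all tested genes. With the wider adjustment 5 were called lower and 0 higher, against 16.5% and 18.6%. With a minimum of 5 FPKM, which both rising genes missed, the counts were 9 and 0. Of the 2450 genes then tested, 1275 were called lower and 932 higher.

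Regulators of mitochondrial gene transcription moved in both directions. Of 15 listed, 5 were among the 3162 selected genes, and 3 rose, 1 fell and 1 did not pass. Of all tested genes, 41.1% were called higher and 49.4% lower. With the wider adjustment 1 rose and 1 fell, against 18.6% and 16.5% of all tested genes. Tfb2m, a mitochondrial transcription factor, went from 22.7 ± 1.89 to 39.1 ± 2.65 FPKM (0.76 ± 0.12, limma adjusted p = 0.00246). The coactivator genes Ppargc1a (0.767 ± 0.354 to 2.33 ± 0.834 FPKM) and Ppargc1b (0.613 ± 0.353 to 1.56 ± 0.172 FPKM) rose at low levels, calls lost with the wider adjustment, and Nrip1, a corepressor of oxidative genes in adipocytes, fell (-0.78 ± 0.17).

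The 5 tested genes outside these lists whose levels over the 6 libraries were most like the mean profile of the 7 genes were Tln1, Tdrd7, Slc25a35, Gpt and 5730409E04Rik. Pearson's r with that profile was 0.9996, 0.999, 0.998, 0.997 and 0.997, over 6 libraries that share the fed and fasted groups. For the 7 genes themselves it was 0.924 to 0.976. Slc25a35, a mitochondrial carrier gene, had a change of -1.92 ± 0.17. Gpt, encoding the alanine aminotransferase that makes pyruvate from alanine, went from 109.8 ± 38.0 to 11.8 ± 2.05 FPKM (-3.07 ± 0.24).

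Of the listed cell type markers, only those among the 3162 selected genes have values here, and some of these moved in the same comparison. They do not show how the other markers of a cell type behaved. Of 8 adipocyte markers listed, 2 were in the selection, Plin1 and Lep, and both fell. Their summed level was 958 to 1423 FPKM in fed and 265 to 499 FPKM in fasted libraries. Of 5 endothelial markers 2 were in the selection, Pecam1 and Tek, and both rose, from a sum of 86.3 to 103 FPKM to one of 146 to 208 FPKM. Of 5 stromal markers Dpt and Col1a1 were measured and fell (161 to 257 FPKM summed in fed, 96.1 to 142 in fasted). Of 8 macrophage markers Itgam was measured and fell (4.55 to 8.38 FPKM in fed, 2.12 to 3.86 in fasted), and of 6 lymphocyte markers Cd3e was below the filter, at 0.15 to 0.23 and 0.89 to 0.98 FPKM. Of 7 brown or beige adipocyte markers Dio2 was measured, at 0.03 to 1.25 FPKM in fed and 0.05 to 0.07 FPKM in fasted libraries. None of the listed markers of skeletal muscle, mesothelium and epididymis was among the selected genes, so these were not analysed here. The part of any of these cell types in the changes of the 7 genes was not tested.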

How the data were processed

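RNA of 3 fed and 3 fasted mice was sequenced in bulk, 1 library a mouse. The deposited values are FPKM, per the file headers, rounded to 2 decimals; RSEM and the builds mm10 and GRCm38.p6 are named in the submitters' processing notes. The version, aligner and annotation were not given in the sources used here. The smallest non-zero value was 0.01 or 0.02, so depth is unknown and no counting interval is given. Each file listed 3162 genes, of which 3158 matched GENCODE M21 (GRCm38). In 93.4% of them the groups did not overlap, and 9 had a log2 ratio of means between -0.2 and 0.4, so they were selected on these libraries by a rule not given in the sources used here.

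Groups come from the label for treatment; replicates were numbered by accession, which pairs no animals, and the labels name no batch. limma 3.58.1 (R 4.3.3; lmFit, eBayes with a variance trend) was run on log2(FPKM + 1). It took in 2999 genes whose mean reached 1 FPKM, two-sided, Benjamini-Hochberg adjusted at 0.05; log2 values understate changes of low genes. Alternatives were a pseudocount of 0.1, no filter, a minimum of 5 FPKM, median-ratio and quantile scaling, no variance trend, adjustment over all protein-coding genes, and leaving out each library. Both scalings were computed from the listed genes alone.

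Named genes were the 7 genes, every measured gene of the TCA, kinase and respiratory chain lists, up to 4 with the smallest p of each other pathway list, and the 5 genes most like the 7 in pattern. Slc25a12 and Me3 were named as well, as the rising genes of their list. A gene is called measured if it was among the 3162 genes. The genes and lists were chosen with earlier results of these data known. Near-identical copies were found with blastn 2.17.0.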

Additional observations from a re-analysis of the deposited data

How the results depend on the processing

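The direction of change held for each of the 7 genes under all 13 alternatives, but only median-ratio and quantile scaling could have reversed it. The filter settings, the variance trend and the wider adjustment leave the fold change as it is. Each of the 7 genes had all its fasted libraries beneath all its fed ones. For such genes a pseudocount of 0.1 or the loss of 1 library cannot reverse the sign. Quantile scaling left 4 of the 7 called lower, and median-ratio scaling took lower calls over all tested genes from 1482 to 787 and higher calls from 1232 to 1237, so that 61.1% of calls were higher in place of 45.4%. Of 11 measured genes of the TCA and pyruvate entry list, median ratios left 5 called lower, quantiles 4 and adjustment over all protein-coding genes 3. Of 17 measured respiratory chain genes the counts were 3, 3 and 2. Of all tested genes, 26.2%, 38.9% and 16.5% were called lower under these settings. The respiratory chain counts were smaller shares than these. Leaving out 1 library gave 7 to 10 of the TCA and pyruvate entry list and 3 to 10 of the respiratory chain list. The share of all tested genes called lower was then 34.5% to 43.4%. The fewest came without fasted replicate 2. The respiratory chain count was 6 when fed replicate 2 was dropped and 7 when fed or fasted replicate 3 was. Cs (-0.28) and Mdh1 (-0.32) lost their calls with quantile scaling, Pdhb (-0.82) with the wider adjustment, and Atp5o with median-ratio scaling (-0.20), quantile scaling (-0.12), the wider adjustment (-0.40) and without fasted replicate 2 (-0.36, limma adjusted p = 0.0565; -0.48 to -0.36 over the libraries left out). The cause was not tested. Of 55 other listed genes, a pseudocount of 0.1 or no variance trend changed no call, a minimum of 5 FPKM none of the 51 still tested, and without a filter 2 more, Atp5f1 and Cox19, were called. Depth is unknown and 3 mice per group limit the precision. No paired analysis was possible because the labels give no numbers shared between the groups.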

Other observations

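Further ratios within each library, for pairs chosen after their values were seen, are given as values. Pdk4 relative to Pdhb was 0.329 ± 0.162 in fed and 1.05 ± 0.0796 in fasted mice (SD, n = 3; two-sided exact permutation p = 0.1, the smallest possible). Pdk3 relative to Pdhb was 0.0531 ± 0.0162 and 0.0487 ± 0.00486, and these groups overlapped (exact permutation p = 0.8). Cox7a2l relative to Cycs was 1.45 ± 0.271 and 3.28 ± 0.301, without overlap (exact permutation p = 0.1). Pdk4 and Cox7a2l rose and Pdhb and Cycs fell, each without overlap, so Pdk4 to Pdhb and Cox7a2l to Cycs could not overlap. Gpd1 relative to Mdh1 was 1.45 ± 0.686 and 0.581 ± 0.213, also without overlap, with the highest value, 2.24, in fed replicate 2 (exact permutation p = 0.1). Adjusted by Benjamini-Hochberg over the 8 pairs computed in all, each p of 0.1 became 0.133 and that of 0.8 remained 0.8.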
